A study of Mus musculus with 17 samples.

Results

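The stretch of mouse chromosome 11 that begins where the α-globin topologically associating domain (TAD) ends was examined, from 32245001 to 33150000 (mm9), a window that starts just before Sh3pxd2b. Its members were the restriction fragments made by the enzyme DpnII whose midpoint lies in the window, chosen by position alone. There were 2058 of them, of 295450 on the chromosome, with a median length of 310 bp, and 1876 had at least 1 interaction with an α-globin viewpoint in some library. Interactions had been measured by Capture-C, a method that cuts and religates crosslinked chromatin, pulls out the junctions of selected fragments (viewpoints) and counts their partners. All values are counts scaled to 100,000 interactions of the same viewpoint on chromosome 11 outside its exclusion zone, the small area around the viewpoint that is left out.

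The 17 libraries formed 5 groups in 2 experiments, which were captured and analysed apart. Primary Ter119+ erythroid cells came from the spleens of adult mice treated with phenylhydrazine, a drug that destroys red cells and drives their renewal, either wild type (WT, n = 3) or homozygous for the loss of 4 CTCF sites, θ1, θ2, HS+44 and HS+48 (QuadDel, n = 3). In QuadDel the stretch between HS+44 and HS+48 was removed as well. CD71+ erythroid cells were differentiated through embryoid bodies from embryonic stem cells that carried a fluorescent Hba-a1 reporter (Hba-a1-YFP) on their only copy of the locus, without an insert (WT aYFP, n = 3), with the α-globin promoter alone inserted between the enhancers and the genes (aPonly, n = 4), or with the promoter and the gene inserted there (aP+G, n = 4). All 3 CD71+ groups shared the reporter and the single copy of the locus. Ter119+ viewpoints were the α-globin genes Hba-1 and Hba-2, whose near-identical copies can share reads, the enhancers R2 and R1, and HS39 and HS38, and CD71+ viewpoints were HS38, R1 and R2. HS38 and HS39 are named as deposited, and the pair of names looks exchanged against the positions of those sites in the study. The window began 48.8 kb from Hba-2 and 107.7 kb from HS39.

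TADs are stretches of chromosome whose parts contact each other more often than they contact the sequence outside. The protein CTCF, bound to its motif in one direction, is known to stop cohesin as it extrudes chromatin loops, so that pairs of CTCF sites facing each other often lie at the ends of such domains. The α-globin enhancers and genes lie in a smaller domain, a sub-TAD, within the TAD, and the genes beyond the TAD end are not globin genes. The window holds 11 protein-coding genes in whole or in part: Sh3pxd2b, Ubtd2, Efcab9, Stk10, Fbxw11, Gm10462, 1700008A04Rik (now Smim23), Fgf18, Npm1, Tlx3 and the end of Ranbp17. Capture-C counts contacts over many cells, so a contact made in more cells and one made more often in the same cells cannot be told apart.

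Sequence at the entry to the window is shown because the fragments that were called from the most viewpoints lie there, between the TAD end and the start of Sh3pxd2b. The first 150 bases of each are given on the plus strand, together with the intronic Sh3pxd2b fragment that had the smallest p among those called from 1 viewpoint. They were searched on both strands for AGNNGGCGC, a core that the θ1, θ2 and HS+44 sites share, and capitals were reserved for matches, of which these 4 fragments held 0.
chr11:32245873-32246022: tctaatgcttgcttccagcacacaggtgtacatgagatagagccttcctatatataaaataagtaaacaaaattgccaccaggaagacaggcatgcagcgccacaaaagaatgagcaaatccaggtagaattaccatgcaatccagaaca
chr11:32246564-32246713: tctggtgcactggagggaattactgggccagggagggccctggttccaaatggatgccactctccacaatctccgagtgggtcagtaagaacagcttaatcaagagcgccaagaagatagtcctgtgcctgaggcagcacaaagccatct
chr11:32246951-32247100: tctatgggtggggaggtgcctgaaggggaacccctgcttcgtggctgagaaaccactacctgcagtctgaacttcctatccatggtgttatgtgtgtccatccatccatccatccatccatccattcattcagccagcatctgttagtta
chr11:32279759-32279908: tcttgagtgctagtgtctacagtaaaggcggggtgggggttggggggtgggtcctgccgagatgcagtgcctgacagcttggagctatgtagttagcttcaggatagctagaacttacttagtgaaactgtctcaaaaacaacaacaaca

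The same letters occurred 40 times in the window, 29 times as written on the plus strand and 11 times on the minus strand. They were not evenly spread, and part of the plus-strand matches lay close together between 32625527 and 32626657. Of the window's fragments 1.46% held a whole match, against 1.25% of all fragments of the chromosome. To show what a match looks like on each side of the domain end, the last pair of matches inside the TAD and the first match on each strand of the window are given with 25 bases on each side, in mm9, plus strand, with the match in capitals. The pair in the TAD was intergenic and lay as written, about 2 kb before the window, and both window matches lay in an intron of Sh3pxd2b.
chr11:32242886-32242944: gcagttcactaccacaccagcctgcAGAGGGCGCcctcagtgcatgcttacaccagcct
chr11:32243083-32243141: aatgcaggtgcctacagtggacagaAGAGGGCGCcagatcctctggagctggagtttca
chr11:32295389-32295447: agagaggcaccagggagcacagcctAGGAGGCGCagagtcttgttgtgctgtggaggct
chr11:32298880-32298938: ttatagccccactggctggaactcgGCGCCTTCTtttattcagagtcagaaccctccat

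The cis totals behind the scaled values ranged from 13619 to 33690 per viewpoint and library in Ter119+ cells and from 6123 to 21735 in CD71+ cells. As a test of the labels, 5 fragments in the stretch between HS+44 and HS+48 were checked, where QuadDel libraries had 9, 9 and 12 counts summed over viewpoints and WT libraries 221, 296 and 323. Viewpoints on other chromosomes gave 4 to 17 interactions with the window per Ter119+ library and 8 to 30 per CD71+ library. These were between 0.289% and 1.49% of their interactions with chromosome 11.

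To ask how far contacts of the α-globin locus reach past the TAD end when 4 CTCF sites are lost, the window was first taken as a whole. QuadDel cells had more interactions with the downstream window than WT cells from each of the 6 viewpoints, between 1.94-fold and 2.41-fold. From HS38, 11019, 10704 and 11632 interactions per 100,000 fell in the window for QuadDel and 4614, 4685 and 5013 for WT. From R2, the values were 5044, 5082 and 4744 in QuadDel and 2391, 2498 and 2735 in WT. From Hba-1, they were 4892, 4817 and 4646 against 1794, 2240 and 2199. In all 3 cases every QuadDel library lay above every WT library, and the same held from HS39, R1 and Hba-2.

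The log2 fold change over the window was 1.27 (SE 0.08) from HS39, 1.22 (SE 0.05) from HS38, 1.14 (SE 0.07) from R1, 0.96 (SE 0.07) from R2, 1.20 (SE 0.09) from Hba-1 and 1.24 (SE 0.07) from Hba-2. Each passed an adjusted p of 0.05 in edgeR's quasi-likelihood test, and the largest adjusted p was 1.07e-10, from R1. Over the chromosome, 33.3% of 78 tests of a region and viewpoint were called higher in QuadDel, the window's own included. The split of all region calls depended on the scale, with 26 higher and 19 lower here, 25 and 1 on the total of all chromosomes, and 21 and 36 on the cis total outside the TAD, while the window itself gave 21 to 23 higher calls and 0 lower. The exact two-sided permutation test cannot give a p below 0.1 with 3 against 3 libraries, and gave 0.1 for each viewpoint. The 6 viewpoints were read from the same libraries and are not replicates of each other.

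**Figure D1:**
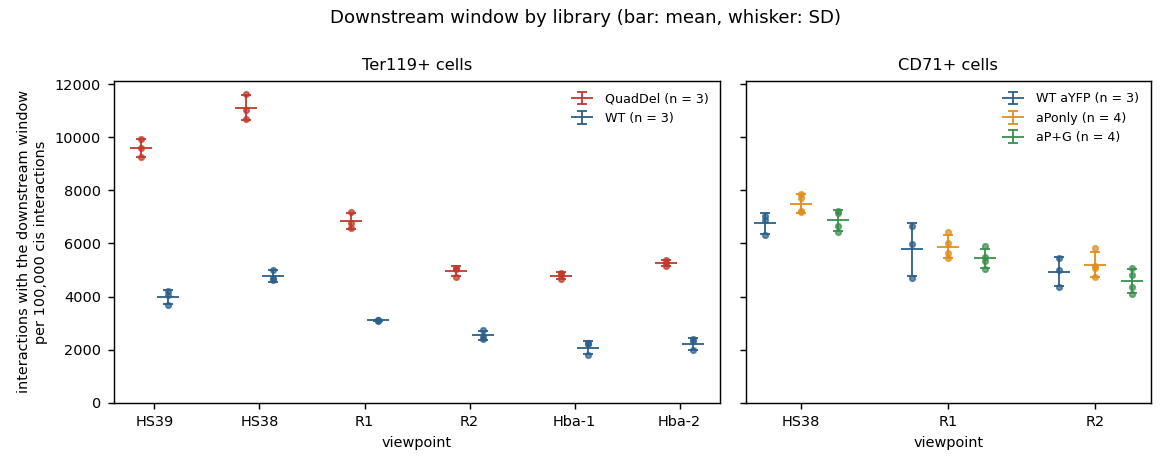
Interactions with the downstream window per 100,000 cis interactions (y axis) for each viewpoint (x axis) in Ter119+ cells (left) and CD71+ cells (right), with a point per library, a bar at the group mean and whiskers of 1 SD. All QuadDel libraries lie above all WT libraries from the 6 Ter119+ viewpoints, whereas none of the 3 CD71+ comparisons passed the test from any viewpoint.

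The gain became smaller with distance from the TAD. In the first 100 kb, which hold Sh3pxd2b, QuadDel exceeded WT by log2 fold changes between 1.29 (SE 0.11, from R2) and 1.56 (SE 0.11, from Hba-1). In the next 300 kb, with Ubtd2, Efcab9, Stk10 and nearly all of Fbxw11, the log2 fold changes were between 0.94 (SE 0.08, from R2) and 1.30 (SE 0.08, from HS39). In the last 505 kb, with Fgf18, Npm1 and Tlx3, they were between 0.25 (SE 0.13, from R2) and 0.69 (SE 0.11, from HS38). All tests of the first 2 parts passed the threshold. Over the last part, the gain passed it from HS39, HS38, Hba-1 and Hba-2 (largest adjusted edgeR p 0.0163), but not from R1 (adjusted p 0.0867) or R2 (adjusted p 0.0889).

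The far part was small in both groups. From R2, QuadDel had a mean of 562 interactions per 100,000 there and WT 466, whereas the first 100 kb had 1842 and 741 (n = 3 each). The ratio of near to far part was higher in every QuadDel library than in every WT library from each viewpoint. The log2 difference of the group means lay between 0.65 (HS38) and 1.18 (R1), with an exact permutation p of 0.1 throughout. The ratio of the first 100 kb to the next 300 kb was higher in QuadDel on average, by 0.14 (HS38) to 0.40 (R2) in log2. For this ratio the groups overlapped from HS39, HS38 and R2 (exact permutation p 0.4, 0.2 and 0.3). They did not from R1, Hba-1 and Hba-2 (0.1 each). From HS39, the call over the far part was lost without QuadDel replicate 1 or 3 or WT replicate 1 or 3, with log2 fold changes from 0.26 to 0.54 over the 6 omissions. From R1 it was gained without WT replicate 3 (0.47).

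A window of the same length on the other side of the TAD, from 31175000 to 32079999, was compared in the same way. Its log2 fold changes lay between -0.29 (SE 0.06, from R2) and 0.01 (SE 0.07, from HS39), and it was called lower in QuadDel from HS38 (adjusted edgeR p 0.0028), R2 (0.000131) and Hba-2 (0.0486), calls that are subject to the same dependence on the scale. The log2 ratio of the downstream to the upstream window, averaged over the viewpoints of a library, was 0.42 ± 0.023 (SD, n = 3) for QuadDel and -0.89 ± 0.048 (SD, n = 3) for WT. The ratio was above 0 in QuadDel and below 0 in WT from each viewpoint, so that the more frequently contacted side differed between the groups. The exact permutation p of the difference of 1.31 was 0.1.

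In 25 kb bins the gain was called from 5 or 6 viewpoints over the first 250 kb, and from a number that varied between bins beyond. Of the 37 bins, 32 had a mean count of at least 5 from at least 1 viewpoint and were tested, which gave 152 tests over the 6 viewpoints. Of these, 78 were called higher in QuadDel by edgeR and 0 lower, where 4.35% of all 2044 tests on the chromosome were called higher. Over the first 400 kb, a limit drawn after the values were seen, all 96 tests had a log2 fold change above 0 and 75 were called, with a median of 1.31. Within it, the bin at 250 to 275 kb was called from 2 viewpoints, that at 275 to 300 kb from 5 and those from 300 to 350 kb from 3 each. The bin at 350 to 375 kb was called from all 6 (log2 fold changes 0.92 to 1.37), and the last, at 375 to 400 kb, from 0 (0.15 to 0.89). Beyond it, 3 of 56 tests were called, 48 were above 0 and the median was 0.48. For comparison, 0 of 162 bin tests were called higher in the upstream window, with a median of -0.19, and 4 of 992 further downstream. All bins of the chromosome split into 89 higher and 22 lower, against 95 and 11 on the total of all chromosomes and 79 and 39 on the cis total outside the TAD. Since the filter uses the mean over both groups, a bin that is high only in QuadDel could pass through that group.

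**Figure D2:**
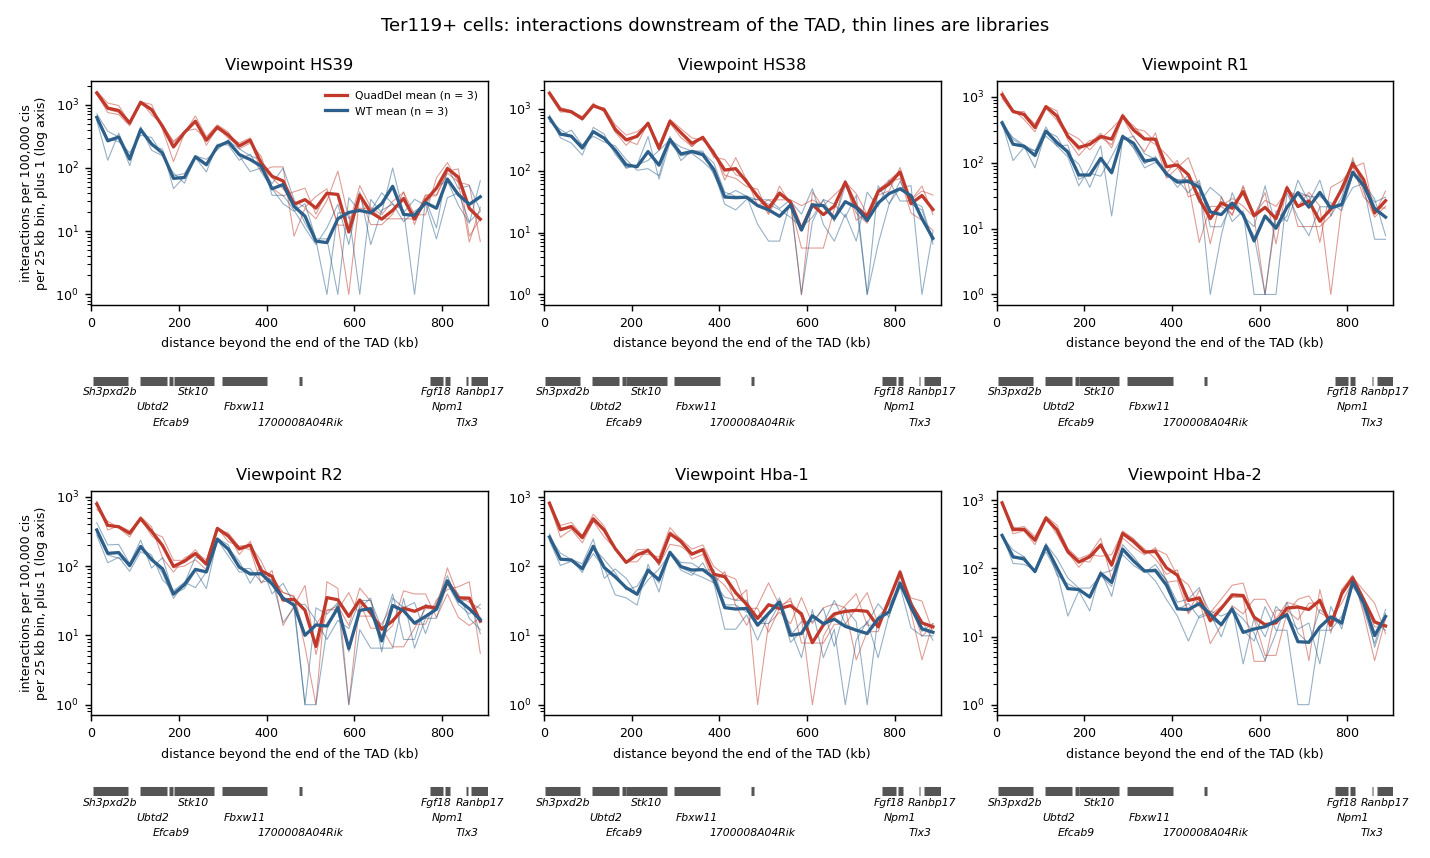
Interactions per 100,000 cis interactions in 25 kb bins, plus 1 (log y axis), against the distance beyond the TAD end in kb, for the 6 viewpoints in Ter119+ cells. Thin lines are libraries, thick lines the means of QuadDel and WT (n = 3 each) and grey bars the protein-coding genes. QuadDel runs above WT up to about 400 kb, both fall steeply there, and both rise again around the starts of Fgf18 and Npm1.

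The first 6 bins were each called from all 6 viewpoints. The first bin, which holds the start of Sh3pxd2b, had from HS38 1660, 1766 and 1922 interactions per 100,000 in QuadDel and 622, 788 and 732 in WT. Its log2 fold change was 1.31 (SE 0.12, adjusted edgeR p 9.23e-15), and from Hba-1, where it was largest, 1.62 (SE 0.15, adjusted p 2.93e-11). From R2, the same bin had 846, 859 and 660 interactions per 100,000 in QuadDel and 277, 297 and 422 in WT, with no overlap. The sixth bin, inside Ubtd2, had a larger fold change than the first from all viewpoints but R1, with 1.81 (SE 0.21) from HS39, 1.78 (SE 0.23) from Hba-1 and 1.83 (SE 0.21) from Hba-2.

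Bins at the starts of Ubtd2 and Fbxw11 stood out in level. The fifth bin, at 100 to 125 kb with the start of Ubtd2, had from Hba-2 553, 587 and 511 interactions per 100,000 in QuadDel and 175, 231 and 229 in WT, a log2 fold change of 1.37 (SE 0.15, adjusted edgeR p 3.03e-09). The twelfth bin, at 275 to 300 kb with the start of Fbxw11, had from Hba-2 353, 281 and 343 in QuadDel and 194, 158 and 223 in WT, a log2 fold change of 0.76 (SE 0.18, adjusted p 0.00379). Over the 6 viewpoints the log2 fold change was between 1.25 and 1.44 for the Ubtd2 bin and between 0.51 and 1.05 for the Fbxw11 bin, where that from R2 did not pass the test (adjusted p 0.091).

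The called bin farthest from the viewpoint lay at 350 to 375 kb, inside Fbxw11, from HS39, R1 and R2. From R2 it had 172, 202 and 228 interactions per 100,000 in QuadDel and 55.5, 91.1 and 81.2 in WT (log2 fold change 1.37, SE 0.30, adjusted edgeR p 0.000146). From Hba-1 and Hba-2 it lay at 400 to 425 kb (log2 fold changes 1.47, SE 0.41, and 1.65, SE 0.41), and from HS38 at 425 to 450 kb (1.57, SE 0.49, adjusted p 0.0364). The last rested on 35, 15 and 13 counts in QuadDel and 6, 4 and 10 in WT. Its call was lost on leaving out any 1 library. No bin beyond 450 kb was called from any viewpoint, where a bin held at most 23 counts in any library.

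**Figure D3:**
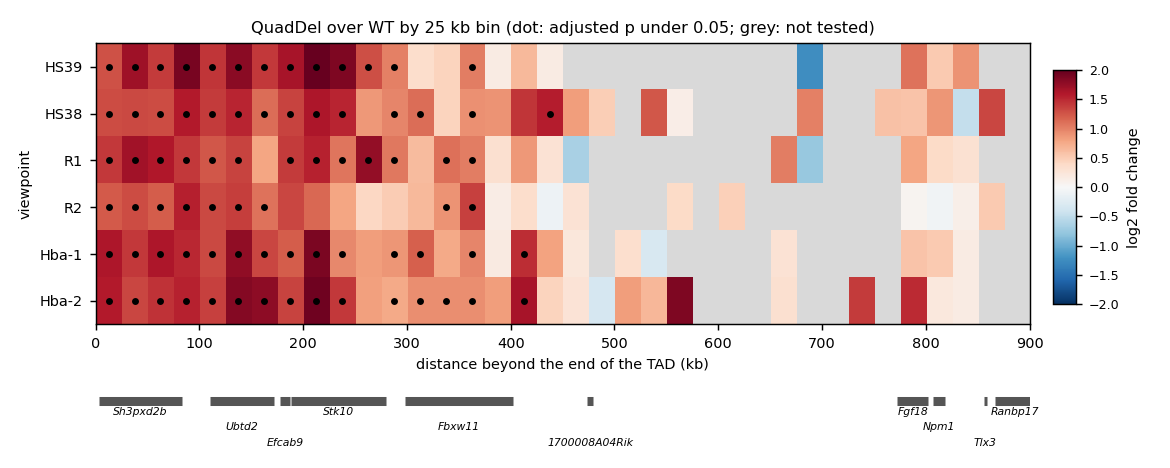
Log2 fold change of QuadDel over WT (colour) for each viewpoint (y axis) and 25 kb bin by its distance beyond the TAD end in kb (x axis), with a dot where edgeR's adjusted p was under 0.05 and grey where the mean count was under 5. Dots fill the first 6 bins from all 6 viewpoints, are most frequent up to the end of Fbxw11 and end at 450 kb.

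The fall of the profile with distance was steeper in QuadDel. In the first 100 kb lay 37.6% ± 0.95 (SD, n = 3) of the interactions with the window for QuadDel and 31.1% ± 0.49 (SD, n = 3) for WT, averaged over viewpoints. The exponent of a power law of distance, fitted to the full bins of each library, averaged -1.50 ± 0.027 (SD, n = 3) for QuadDel and -1.21 ± 0.013 (SD, n = 3) for WT. From each of the 6 viewpoints every QuadDel library was steeper than every WT library, with an exact permutation p of 0.1. The median R2 interaction with the window lay 140 kb ± 6.99 (SD, n = 3) beyond the TAD end for QuadDel and 227 kb ± 48.7 (SD, n = 3) for WT. That was the largest gap of the 6 viewpoints. The smallest was from HS38, with 129 kb ± 5.11 (SD, n = 3) for QuadDel and 146 kb ± 2.65 (SD, n = 3) for WT.

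Some bins stood above this smooth fall. Bins were listed, as a description, where every library of a group had at least 1.5 times its fitted count. The Fbxw11 start bin was listed in 12 of 12 combinations of viewpoint and group, with means between 2.09 and 3.58 times the fit, and the bin after it in 11. Bins inside Fbxw11 without a gene start were listed too. That at 350 to 375 kb was listed in 9 combinations (1.68 to 2.22 times) and that at 325 to 350 kb in 5 (1.71 to 2.11 times). The Ubtd2 start bin was listed from 6 viewpoints in QuadDel and 3 in WT (1.66 to 1.91 times the fit). Where WT was not listed, its means were 1.74 (HS39), 1.51 (HS38) and 1.39 (R2) times the fit. Those of QuadDel were 1.85, 1.66 and 1.67 there. The bin at 800 to 825 kb with the starts of Fgf18 and Npm1 was listed from 4 viewpoints in each group (1.85 to 2.70 times). From Hba-2 that bin had 73.3, 78.9 and 64.4 interactions per 100,000 in QuadDel and 53.2, 65.4 and 68.4 in WT, with overlapping groups and a log2 fold change of 0.21 (SE 0.33, adjusted edgeR p 0.888).

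Over gene bodies, 26 of 48 tests in the window were called higher in QuadDel and 0 lower, where 2.25% of 1290 gene tests on the chromosome were called higher. Sh3pxd2b, Ubtd2, Stk10 and Fbxw11 were called from all 6 viewpoints and Efcab9 from 2. From R1, Efcab9 passed the filter only through its QuadDel counts. Fgf18, Npm1 and Ranbp17 were tested and called from none. 1700008A04Rik and Tlx3 had a mean count under 5 from every viewpoint and were not tested, and Gm10462, which lies within Fbxw11, contained no fragment midpoint.

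Sh3pxd2b encodes an adaptor protein of podosomes, the adhesive structures with which cells degrade matrix. From Hba-2 its body had 1565, 1509 and 1451 interactions per 100,000 in QuadDel and 520, 619 and 541 in WT, and no QuadDel library came near a WT library. This was a log2 fold change of 1.43 (SE 0.10, adjusted edgeR p 1.09e-37), and over the viewpoints it was between 1.22 and 1.54. Ubtd2 encodes a ubiquitin-like domain protein. From HS39 its body had 1883, 1761 and 1924 interactions per 100,000 in QuadDel and 604, 624 and 523 in WT, and its log2 fold changes were between 1.21 (from R1) and 1.67 (from HS39).

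Stk10 encodes a serine/threonine kinase abundant in lymphocytes. It had from R1 758, 758 and 948 interactions per 100,000 in QuadDel and 373, 299 and 318 in WT. Its log2 fold changes ranged more widely than those of its neighbours, from 0.73 (SE 0.18, from R2) to 1.78 (SE 0.16, from HS39). Fbxw11 encodes an F-box protein that selects substrates for a ubiquitin ligase. From R2 it had 773, 800 and 836 interactions per 100,000 in QuadDel and 522, 484 and 395 in WT, again with no overlap. Its log2 fold changes, from 0.54 (SE 0.15, from HS39, adjusted p 0.0133) to 0.85 (SE 0.10, from HS38), were the smallest of the 4 genes from every viewpoint but R2, where that of Stk10 was smaller. The call from HS39 was lost without QuadDel replicate 1 or 2 or WT replicate 1 or 2, and that of Stk10 from R2 without QuadDel replicate 2 or WT replicate 2 or 3.

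Efcab9, which encodes a calcium-binding protein of the sperm tail, is short, with 15 fragments. From HS38 it had 120, 108 and 118 interactions per 100,000 in QuadDel and 43.9, 38.9 and 37.5 in WT (log2 fold change 1.52, SE 0.33, adjusted edgeR p 0.0267). It was called from R1 too (2.25, SE 0.67, adjusted p 0.0316), on 10, 20 and 11 counts against 2, 4 and 2. The call from HS38 was lost on leaving out any 1 library, and that from R1 on 4 of these omissions.

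Of the distal genes, Fgf18 encodes a secreted growth factor, Npm1 the abundant nucleolar protein nucleophosmin, Tlx3 a homeobox transcription factor and Ranbp17 a nuclear transport receptor. From Hba-2, Fgf18 had 46.6, 54.9 and 30.0 interactions per 100,000 in QuadDel and 19.0, 13.8 and 11.9 in WT, which did not overlap but did not pass the test (log2 fold change 1.57, SE 0.54, adjusted p 0.103). From HS38, Npm1 had 60.1, 39.4 and 65.6 in QuadDel and 18.8, 44.4 and 32.9 in WT, which overlapped (log2 fold change 0.74, SE 0.46, adjusted p 0.621). Npm1 ranged from -0.61 to 0.89 in log2 fold change over the viewpoints. Those of Ranbp17, which ran past the window to its start and was counted whole, were between 0.08 and 0.36, with the smallest adjusted p 0.522.

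**Figure D4:**
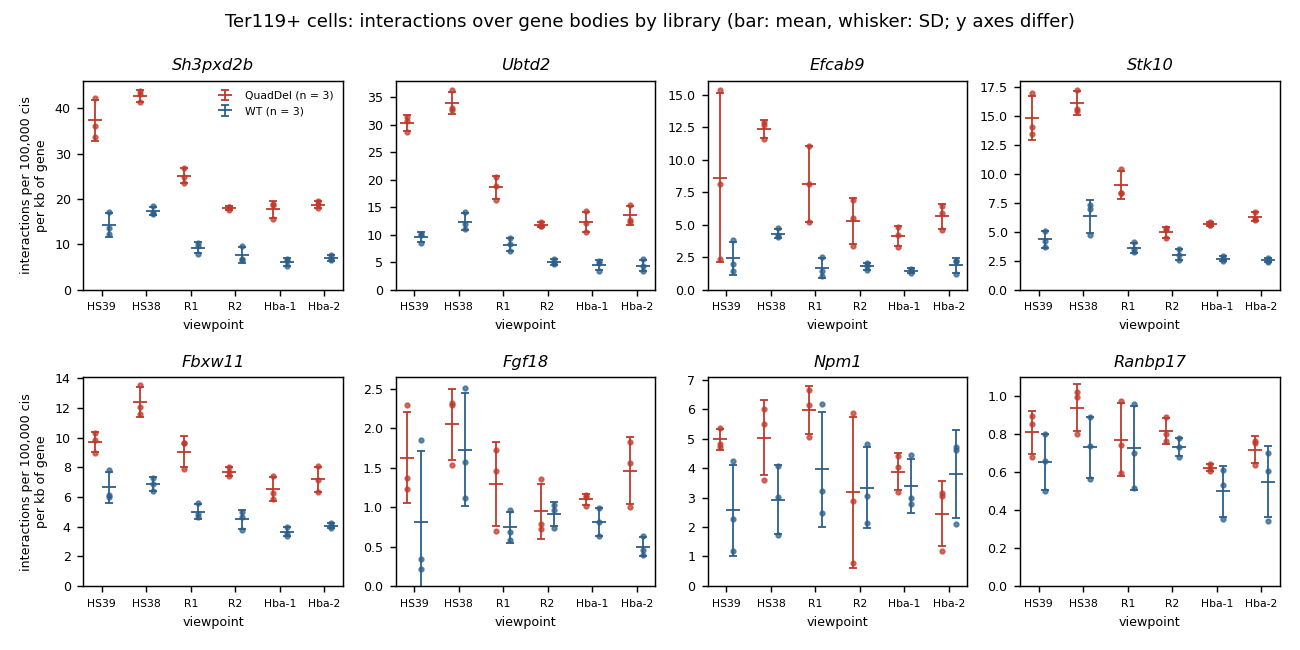
Interactions per 100,000 cis interactions and per kb of gene (y axis, which differs between panels) by viewpoint (x axis) for 8 genes in Ter119+ cells, with a point per library, a bar at the mean and whiskers of 1 SD (n = 3). QuadDel libraries lie above WT libraries from every viewpoint for Sh3pxd2b, Ubtd2, Stk10 and Fbxw11, and the groups overlap from most viewpoints for Fgf18, Npm1 and Ranbp17.

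Single fragments were thinly covered, and 69 combinations of fragment and viewpoint had a mean count of at least 5. Of these, 15 were called higher in QuadDel and 0 lower, where 3.0% of 2070 tests on the chromosome were called higher. In all 15 the WT mean was below the filter of 5, so each was tested only through its QuadDel counts, and the share is given as a description. The 15 calls fell on 10 fragments, 9 of them within the first 34.9 kb. The fragment chr11:32245873-32246319, whose first bases are given above, was called from HS38, Hba-1 and Hba-2. From Hba-1 it had 11, 11 and 7 counts in QuadDel and 0, 2 and 2 in WT (log2 fold change 2.87, SE 0.68, adjusted edgeR p 0.00438). Its neighbour chr11:32246564-32246950 was called from R1, Hba-1 and Hba-2, with 9, 12 and 15 counts against 2, 0 and 4 from Hba-2 (2.63, SE 0.60, adjusted p 0.00645).

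The fragment chr11:32279759-32280095, in an intron of Sh3pxd2b, was called from HS38 on 8, 7 and 14 counts in QuadDel and 0, 2 and 0 in WT (log2 fold change 3.62, SE 0.86, adjusted p 0.00538), a mean of 5.17 that just passed the filter. The only called fragment beyond Sh3pxd2b, chr11:32542847-32543764, overlaps an exon at the start of Fbxw11 and was called from R1, with 9, 14 and 5 counts against 1, 4 and 0 (2.33, SE 0.66, adjusted p 0.0146). From Hba-2 the same fragment had 4, 3 and 10 counts in QuadDel and 26, 4 and 6 in WT (-0.97, SE 0.62, adjusted edgeR p 0.477). Such counts give little precision. DESeq2's Wald test on the same library sizes called 2 of the 69, and leaving out QuadDel replicate 3 left 5 calls, QuadDel replicate 1 or 2 or WT replicate 1 or 2 left 7 each, and WT replicate 3 left 13.

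To ask whether an active insert inside the sub-TAD alters contacts beyond the TAD, the same window was compared among the 3 CD71+ groups. No region, bin, gene body or fragment of the window was called in any of the 3 comparisons. For fragments this says little, because only 1 window fragment reached the mean count of 5, from HS38, and 0 from R1 or R2. In aP+G against WT aYFP, 0.0% of 39 region tests, 0.0% of 401 bin tests, 0.0% of 309 gene tests and 0.115% of 873 fragment tests on the chromosome were called. In aPonly against WT aYFP, no test of any kind was called, and in aP+G against aPonly 0.324% of gene tests and 0.115% of fragment tests were. At an unadjusted p under 0.05, edgeR had 5, 3 and 6 of 85 window bins in these comparisons, and DESeq2, which also called 0, had 3, 2 and 5.

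From HS38, the window held 6897, 7044 and 6325 interactions per 100,000 in WT aYFP. It held 7230, 7720, 7873 and 7174 in aPonly and 7233, 6663, 7150 and 6434 in aP+G. The aPonly libraries all lay above those of WT aYFP, but the log2 fold change of 0.15 had an adjusted p of 0.335 in edgeR, with an approximate 95% interval (1.96 SE) from 0.04 to 0.27. For aP+G against WT aYFP it was 0.03, with an interval from -0.09 to 0.14, and for aP+G against aPonly -0.13, with an interval from -0.23 to -0.02 and an adjusted p of 0.257. From R1 and R2 all 3 groups overlapped, and the log2 fold changes were between -0.19 and 0.08. These intervals bound changes of the window as a whole, not of single bins.

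**Figure D5:**
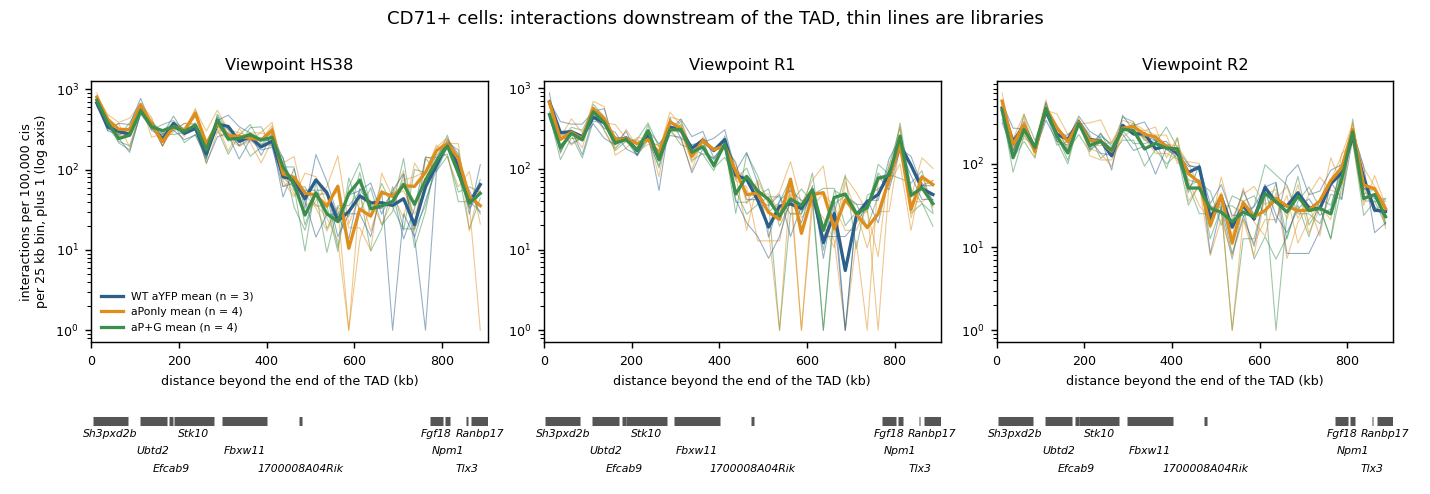
Interactions per 100,000 cis interactions in 25 kb bins, plus 1 (log y axis), against the distance beyond the TAD end in kb, for the 3 viewpoints in CD71+ cells. Thin lines are libraries and thick lines the means of WT aYFP (n = 3), aPonly and aP+G (n = 4 each). The lines of the 3 groups lie over each other, fall beyond about 400 kb and rise again at the bin with the starts of Fgf18 and Npm1.

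The same start bins were examined in CD71+ cells. The Fgf18 and Npm1 start bin was listed in 7 of 9 combinations of viewpoint and group, with means between 2.53 and 4.21 times the fit, the Fbxw11 start bin in 6 (2.00 to 2.35 times) and the Ubtd2 start bin in 4 (1.65 to 2.04 times). The bin after the Fbxw11 start, which holds no gene start, was also listed in 4 (1.95 to 2.07 times). From R2, the Fgf18 and Npm1 bin had 216 ± 25.7 interactions per 100,000 (SD, n = 3) in WT aYFP, 259 ± 64.7 (SD, n = 4) in aPonly and 240 ± 72.3 (SD, n = 4) in aP+G. Per kb of gene, R2 interactions in WT aYFP were 10.9 ± 1.44 (SD, n = 3) for Sh3pxd2b, 10.6 ± 2.44 for Npm1, 10.4 ± 1.82 for Ubtd2 and 10.3 ± 3.10 for Efcab9, which lay within each other's spread. Stk10 (8.07 ± 0.808) and Fbxw11 (7.75 ± 2.03) followed, then Fgf18 (3.50 ± 1.55) and Ranbp17 (1.07 ± 0.234).

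The share of the window in its first 100 kb, averaged over viewpoints, was 21.9% ± 1.04 (SD, n = 4) in aP+G, 23.7% ± 1.04 (SD, n = 4) in aPonly and 23.8% ± 0.413 (SD, n = 3) in WT aYFP. The exact two-sided permutation p was 0.0571 for aP+G against WT aYFP (difference -1.82 percentage points), 0.0857 for aP+G against aPonly (-1.77) and 0.914 for aPonly against WT aYFP (-0.05). By viewpoint, aP+G and WT aYFP did not overlap from R1, where the share was 21.1% ± 1.45 (SD, n = 4) in aP+G and 25.7% ± 1.08 (SD, n = 3) in WT aYFP, with all 4 aP+G libraries below all WT aYFP libraries. The exact permutation p from R1 was 0.0571, the smallest that 4 against 3 libraries allow, and 0.171 after adjustment over the 3 viewpoints. The decay exponent from R1, a related measure of the same counts, was -0.95 ± 0.075 (SD, n = 4) and -1.07 ± 0.016 (SD, n = 3), also without overlap and with the same exact permutation p and adjusted p. From HS38 the shares were 23.6% ± 1.03 and 23.5% ± 2.47, and from R2 21.0% ± 2.38 and 22.0% ± 0.855. Averaged over viewpoints, the downstream window held fewer interactions than the upstream window in all 3 groups, with log2 ratios of -0.75 ± 0.086 (SD, n = 3) in WT aYFP, -0.75 ± 0.053 (SD, n = 4) in aPonly and -0.80 ± 0.018 (SD, n = 4) in aP+G. The 2 windows mirror each other about the TAD, not about the viewpoints. The CD71+ viewpoints lay 93.5 to 106.5 kb from the downstream window and nearer to the upstream one, and the part of this distance in the ratios was not tested.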

How the data were processed

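The authors trimmed reads with Trim Galore, merged pairs, cut them in silico at DpnII sites, aligned them with Bowtie to mm9 or a custom mm9, removed PCR duplicates and deposited raw counts of unique interactions per fragment and viewpoint. Deposited viewpoint positions (other) are coordinates, not measurements. The reference sequence and annotation (GENCODE M1) match mm9: 101907 of 101907 deposited chromosome 11 fragments were DpnII fragments of it.

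Fragments overlapping the exclusion zone and combined viewpoints were left out. Counts were summed over regions, 25 kb bins and gene bodies by fragment midpoint and tested, at a mean count of at least 5, with edgeR 4.0.16 (quasi-likelihood, R 4.3.3; SE is the log2 fold change over the square root of F), with the viewpoint's cis total as library size and Benjamini-Hochberg adjustment over all features and viewpoints of a comparison at 0.05. The study used DESeq2, run as an alternative (1.42.0). Libraries were compared with exact permutation tests in scipy 1.17.1, and decay was fitted by Poisson regression. Scripts were tested on simulated data. Replicates differed by more than sampling noise (chi-square per degree of freedom 1.68 to 2.56). All protein-coding genes of the window are named; named bins are the first, the farthest called, the up to 3 called with the smallest p per viewpoint and those listed above the decay line, and named fragments come from the up to 3 called with the smallest p per viewpoint. Members, lists and rules were chosen with earlier results of these data known. Counting precision is that of 6123 to 33690 cis interactions. The closing section gives the alternatives.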

Additional observations from a re-analysis of the deposited data

Results flagged for a closer look

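In groups of 4 libraries, 6 of 42 combinations of measure, viewpoint and CD71+ group held a library far from the others by Dixon's test, where chance gives about 1 in 20. In aPonly, replicate 3 was high in the part from 100 to 400 kb from HS38 (4456 interactions per 100,000, others 3819 to 3833) and from R2 (3315, others 2725 to 2785), and replicate 2 was low in the last 505 kb from R2 (915, others 1198 to 1253). In aP+G, replicate 4 was high in the first 100 kb from R2 (1212, others 874 to 893) and had a low log2 ratio of downstream to upstream window from HS38 (-0.91, others -0.76 to -0.75), and replicate 1 had the flattest decay from R2 (exponent -0.82, others -0.99). Their part in the CD71+ comparisons was not tested beyond leaving each library out.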

How the results depend on the processing

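The gain of the downstream window in Ter119+ cells kept its direction from all 6 viewpoints under every alternative, and its counts of calls were 21 to 23 of 24 for the window and its parts, 62 to 85 for 25 kb bins and 22 to 27 for gene bodies. Other bin sizes change the number of tests: 137 bins of 10 kb and 45 of 50 kb were called. Single fragments depended most on the setting, with 15 calls becoming 2 with DESeq2, 5 at an adjusted p under 0.01 and 5 to 13 on leaving out a library; at a mean count of at least 20 no window fragment was left to test. In CD71+ cells, leaving out a library gave 0 to 1 called regions for aP+G against WT aYFP and 0 to 1 for aP+G against aPonly.

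Values near 0 changed sign. From R1, the window log2 fold change of aPonly over WT aYFP was -0.00877 with TMM factors, -0.0366 with DESeq2 size factors and -0.0909 to 0.141 on leaving out a library, and that of aP+G over aPonly was 0.00171 with TMM factors. Leaving out a library gave -0.0227 to 0.0659 from HS38 and -0.207 to 0.0262 from R1 for aP+G over WT aYFP, and -0.00464 to 0.17 from R2 for aPonly over WT aYFP. Ranbp17 from R1 was -0.00635 with TMM factors, -0.0337 with the cis total outside the TAD (added after seeing the data) and -0.13 to 0.34 without a library, Fgf18 from R2 -0.30 to 0.23 and Npm1 from R2 -0.84 to 0.37. For aPonly against WT aYFP, the difference in near share was 0.392 percentage points over the first 50 kb, 0.249 over the first 200 kb and -0.39 to 0.254 without a library, the log2 ratio to the upstream window -0.0256 without the first 25 kb and -0.0379 to 0.0471 without a library, and the decay exponent -0.0445 to 0.0104 without a library. The decay exponent of aP+G against WT aYFP was -0.016 without the first 4 bins. The cause was not tested.

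Replicate numbers gave no clear pairing of the samples: correlations of same-numbered deviations were -0.11 to 0.08 in Ter119+ and -0.16 to 0.17 in CD71+ cells, and 2 of 6 and 9 of 20 libraries correlated best with their own number. Correlations this weak over noisy bins cannot exclude a pairing. With the replicate block, calls were 23 for regions, 75 for bins, 24 for genes and 7 for fragments in Ter119+ cells. Depth limits single fragments and bins beyond 450 kb most.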
